A study of Mus musculus with 8 samples.

Results

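The miR-30 family was described through 10 mature arms of its hairpins in mouse bone marrow-derived macrophages. The arms were taken by name, with earlier results of these data known: mmu-miR-30a-5p, mmu-miR-30a-3p, mmu-miR-30b-5p, mmu-miR-30b-3p, mmu-miR-30c-5p, mmu-miR-30c-1-3p, mmu-miR-30c-2-3p, mmu-miR-30d-5p, mmu-miR-30d-3p and mmu-miR-30e-5p. They are 10 of the 1907 mature miRNAs listed in each count table. Macrophages were grown from bone marrow precursors of wild-type mice aged 8 to 12 weeks, over 6 days with supernatant of L929 fibroblasts, which secrete the macrophage growth factor M-CSF. One group of 3 libraries came from unstimulated cells (control), and the other group of 3 from cells given lipopolysaccharide (LPS) at 100 ng/ml for 3 h. LPS, from the outer membrane of Gram-negative bacteria, activates macrophages through the receptor TLR4. The labels give no strain and do not state that replicates are different mice or cultures, so the p-values reflect the spread among these libraries alone, and that spread may be technical.

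A miRNA is cut from a hairpin precursor as a duplex of a 5p and a 3p arm. One arm usually stays in the Argonaute silencing complex and the other is degraded. The loaded arm finds its messenger RNAs mainly through its seed, bases 2 to 8. The miR-30 family is made from 3 pairs of hairpins, and its 5p arms share 1 seed. It is known for restraining the autophagy gene Becn1, the Notch ligand Dll4 and the mesenchymal regulator Snai1, and it is expressed in most tissues.

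The mature sequences below show how close the arms are, since reads of near-identical arms can be hard to assign. RefSeq sequences on GRCm38.p6 were found for 6 of the 10 listed arms and for miR-30e-3p. They are written 5′ to 3′ with the seed in capitals.
miR-30a-5p: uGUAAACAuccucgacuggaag
miR-30e-5p: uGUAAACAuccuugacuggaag
miR-30c-5p: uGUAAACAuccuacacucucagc
miR-30a-3p: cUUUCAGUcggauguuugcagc
miR-30e-3p: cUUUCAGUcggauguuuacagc
miR-30c-1-3p: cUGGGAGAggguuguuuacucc
miR-30c-2-3p: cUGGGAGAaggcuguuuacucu
The arms of miR-30b and miR-30d are not printed. The 3 printed 5p arms have the seed GUAAACA in common and are identical over their first 12 bases. Counting from 1 at the 5′ end, miR-30a-5p and miR-30e-5p differ by C13U alone, and miR-30a-3p and miR-30e-3p by G18A alone. miR-30c-5p differs from miR-30a-5p at 5 of 22 compared bases (C13A, G14C, G18C, G19U and A20C). The 3p arms fall into other seed groups. miR-30a-3p shares UUUCAGU with miR-30e-3p, and both miR-30c 3p arms carry UGGGAGA and differ from each other by G9A, U12C and C22U.

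The hairpins lie in pairs on GRCm38.p6, each pair holding 2 different members. On chromosome 1, Mir30a (23272269 to 23272339) and Mir30c-2 (23291701 to 23291784) are 19.4 kb apart, and the RefSeq gene table has no other gene in between. On chromosome 4, Mir30c-1 (120769534 to 120769622) and Mir30e (120772606 to 120772697) are 2983 bases apart, inside the span of Nfyc (120757435 to 120831579), which encodes a subunit of the transcription factor NF-Y. On chromosome 15, Mir30b (68337415 to 68337510) and Mir30d (68341208 to 68341289) are 3697 bases apart with no other listed gene between them. The table gives spans only, so whether a hairpin is exonic or intronic was not determined. miR-30c-5p is made by both Mir30c-1 and Mir30c-2, so its counts belong to no single locus.

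Libraries held 3280688 to 4312555 counts, the lowest being LPS replicate 1. The cell type label was checked against marker miRNAs: 7 of 8 macrophage and myeloid markers had at least 10 counts in some library, and their summed level was 489151 to 564469 CPM (counts scaled to a common library size). Most of this sum was miR-22-3p (mean 234069 CPM) and miR-21a-5p (mean 217447 CPM). The means of the other counted markers lay between 33.7 CPM (miR-511-5p) and 56672.5 CPM (miR-142a-5p), so the sum says little about them. Erythroid, endothelial, stromal, muscle, neural and liver markers summed to at most 2.21 CPM in any library, with the muscle, neural and liver markers all at 0. Lymphocyte markers (2 miRNAs) summed to 56.3 to 71.3 CPM in controls and 63.7 to 77.6 CPM after LPS, and epithelial markers (6 miRNAs) to 241 to 269.4 CPM and 219.4 to 275.2 CPM. The part of these cells in the miR-30 levels was not tested. The LPS libraries carried a response, since miR-155-3p was at 1.94 to 6.41 CPM in controls and 456.9 to 506.8 CPM after LPS.

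A group of 4 arms, all 5p, made up nearly the whole miR-30 pool. miR-30d-5p was at 27090, 25674 and 25538 CPM in controls and 26448, 25370 and 25664 CPM after LPS. miR-30e-5p was at 11656, 11700 and 11305 CPM in controls and 11996, 11544 and 11154 CPM after LPS. miR-30b-5p, the next lower arm, was at 6160, 5891 and 6316 CPM and at 6818, 5825 and 6643 CPM. These values place miR-30d-5p 7th, miR-30e-5p 14th and miR-30b-5p 21st of all listed miRNAs by mean level, and the ranges of the 3 arms do not overlap. miR-30a-5p, the arm nearest to miR-30e-5p in sequence, was far lower, at 1053, 958.3 and 985.3 CPM in controls and 911.9, 1058 and 1161 CPM after LPS. The ratio of miR-30e-5p to miR-30a-5p counts was 11.6 ± 0.58 in controls and 11.2 ± 1.80 after LPS (SD, n = 3 per group).

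**Figure D1:**
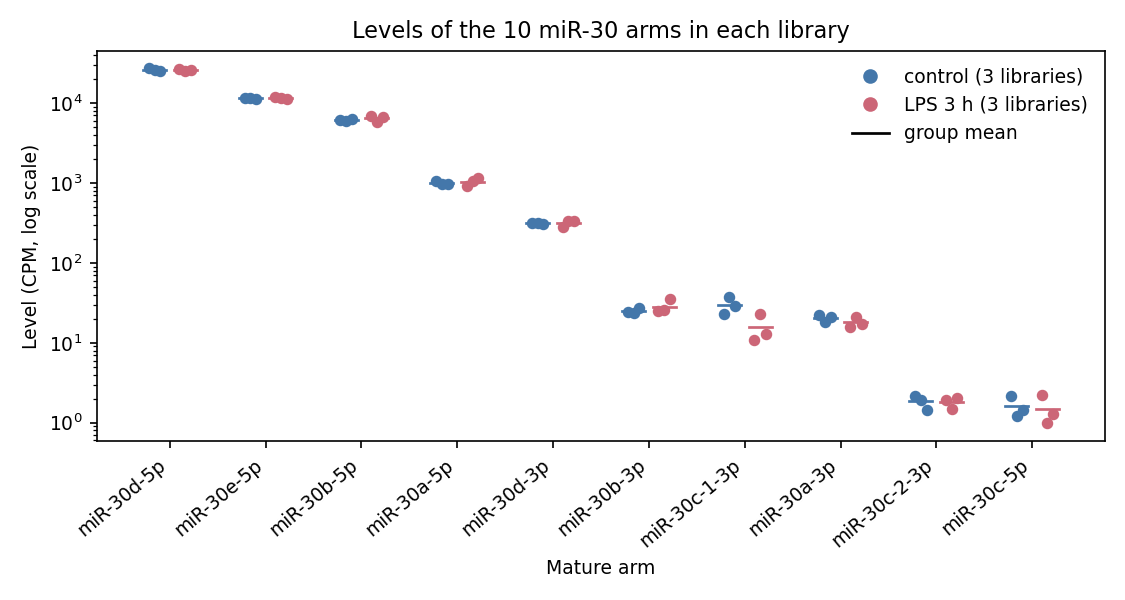
Level of each of the 10 miR-30 arms (CPM, log scale) in the 3 control and 3 LPS libraries, with a bar at each group's mean. The arms span from about 1 CPM (miR-30c-5p) to 27090 CPM (miR-30d-5p), and the control and LPS points of each arm overlap.

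The 3p arms were far lower. The highest, miR-30d-3p, was at 315.3, 314.1 and 304.8 CPM in controls and 278.0, 334.4 and 338.8 CPM after LPS. miR-30b-3p (23.5 to 35.0 CPM over the 6 libraries), miR-30c-1-3p (10.8 to 37.4 CPM) and miR-30a-3p (15.8 to 22.1 CPM) came next. miR-30b-3p lay above miR-30a-3p in every library and their ranges did not overlap, while the range of miR-30c-1-3p overlapped both. The last 2 arms, miR-30c-2-3p (6 to 9 counts per library) and miR-30c-5p (4 to 9 counts), were too low for the filter of the test and also overlapped. Precision from depth covers counting error only, since reads carry no molecular identifiers: miR-30c-5p summed to 20 counts over the controls (exact Poisson 95% interval 12.2 to 30.9) and 16 after LPS (9.15 to 26.0).

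As a share of all miRNA counts, the 10 arms held 4.53%, 4.70% and 4.58% in controls and 4.48%, 4.52% and 4.32% after LPS. The means were 4.60% ± 0.088 and 4.44% ± 0.10 (SD, n = 3), and every LPS library lay below every control library, the nearest being control replicate 1 and LPS replicate 2. This order rested on the denominator: with TMM-scaled library sizes in place of totals the means were 4.517% in controls and 4.525% after LPS. No test was made of this sum over chosen arms, and in bulk RNA fewer cells of a type and less RNA per cell cannot be told apart. When miRNAs were grouped by the number in their names, miR-30 was the 6th of 536 groups with counts, after miR-22, miR-21, miR-27, miR-191 and miR-142 and ahead of let-7 (3.02% of counts).

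Within this pool, miR-30d-5p held 57.8% ± 0.59 of the family's counts in controls and, after LPS, 57.1% ± 0.27. miR-30e-5p held 25.6% ± 0.56 and 25.6% ± 0.70, miR-30b-5p 13.6% ± 0.54 and 14.2% ± 0.88, and miR-30a-5p 2.21% ± 0.063 and 2.31% ± 0.32. The 5 listed 3p arms together held 0.861% ± 0.026 and 0.844% ± 0.11. By locus, the miR-30b/miR-30d pair on chromosome 15 gave 72.1% ± 0.52 of the pool in controls and 72.0% ± 0.61 after LPS. The chromosome 4 pair gave 25.7% ± 0.58 and 25.6% ± 0.71, and the chromosome 1 pair 2.26% ± 0.066 and 2.36% ± 0.32. The control and LPS libraries overlapped in the share of every arm and every locus, and no test was made of the shares.

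**Figure D2:**
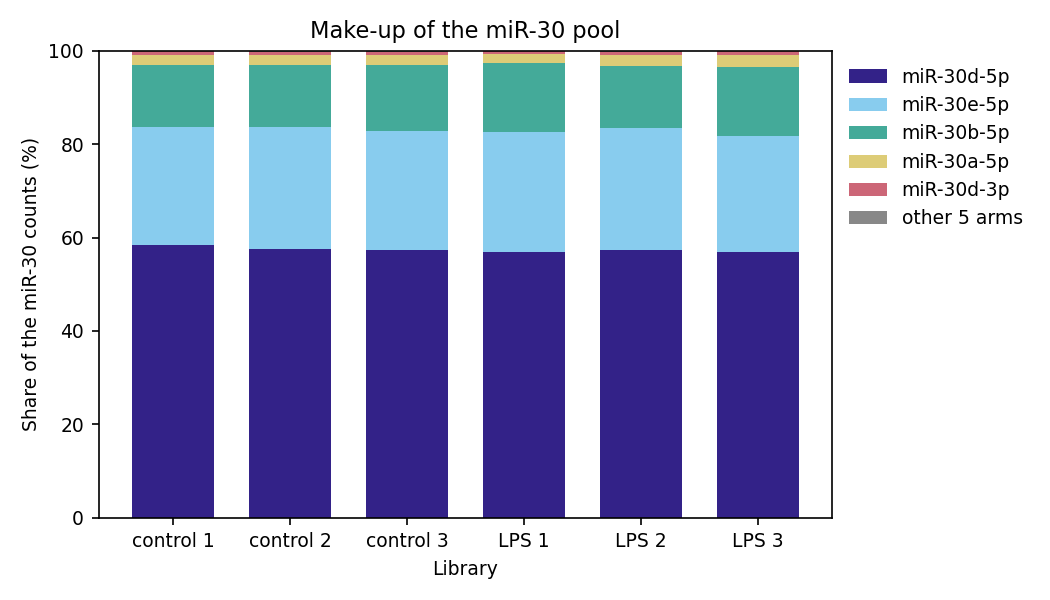
Share of the miR-30 counts (percent) held by each arm in each of the 6 libraries. miR-30d-5p takes 56.9% to 58.4% and miR-30e-5p 24.8% to 26.2% in every library, and the other 5 arms, drawn as 1 segment, are a sliver.

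A pair of features of the deposited counts limit these shares. First, miR-30e-3p was listed at 0 in all 6 libraries, although its partner miR-30e-5p had 37886 to 49095 counts per library. Only if reads of this arm were counted at all does a 0 allow up to 3 counts, or 0.0061% to 0.0079% of the miR-30e-5p counts of the same library. Of 73 hairpins whose more abundant arm averaged at least 1000 counts, 2 had a partner arm at 0 in all libraries, and the other was miR-142a, with miR-142a-5p at 196331 to 238828 counts and miR-142a-3p at 0. Both of these arms lie opposite another annotated mature miRNA. miR-30e-3p overlaps miR-30f, annotated on the opposite strand at the same hairpin, by 19 bases, and miR-142a-3p overlaps miR-142b on the opposite strand by 20 bases. miR-30f and miR-142b were also at 0.

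Few of the other overlapping miRNAs had counts. Of 63 listed miRNAs that overlap another annotated mature miRNA, 1 (miR-203-3p, chosen after its values were seen) reached 10 counts in some library, against 332 of 1517 miRNAs with 1 hairpin and no overlap, and 59 of the 63 were at 0 throughout. How overlapping annotations were counted is not given in the sources used here, so the 0 of miR-30e-3p is a listed value and not a measured absence. The hairpins of Mir30a and Mir30e are printed with both mature arms in capitals, to show that the miR-30e arm at 0 sits where the counted 3p arm of miR-30a does.
Mir30a: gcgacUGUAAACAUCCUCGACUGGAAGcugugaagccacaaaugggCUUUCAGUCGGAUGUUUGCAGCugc
Mir30e: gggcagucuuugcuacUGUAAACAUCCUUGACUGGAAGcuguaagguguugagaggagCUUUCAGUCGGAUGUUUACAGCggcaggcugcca

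Second, miR-30c-5p had fewer counts in every library than miR-30c-1-3p, a 3p arm of 1 of its 2 hairpins. It had 36 counts over all libraries, against 549 for miR-30c-1-3p. miR-30c-2-3p, from the other hairpin, had 43, and its counts overlapped those of miR-30c-5p. In miR-30a, miR-30b and miR-30d the 5p arm instead exceeded the 3p arm in every library. The handling of reads that fit several hairpins is not given either. Of 51 listed miRNAs annotated at more than 1 hairpin, 14 (27.5%) reached 10 counts in some library, against 21.9% of miRNAs with 1 hairpin and no overlap. At 1000 counts it was 2 of the 51, against 84 of the 1517 with 1 hairpin and no overlap. The order seen in miR-30c was not unique to it. By mean level, miR-181a-5p (3.37 CPM) lay below miR-181a-1-3p (223 CPM), and miR-125b-5p (58.7 CPM) below miR-125b-2-3p (837 CPM). Others went the other way, such as miR-16-5p (120 CPM) above miR-16-1-3p (57.2 CPM) and miR-92a-3p (26493 CPM) above miR-92a-1-5p (70.4 CPM). These examples were chosen after their values were seen. What part annotation at several hairpins has in the low count of miR-30c-5p was not tested. Of 4 mature miRNAs with the seed GUAAACA in the RefSeq table, miR-30a-5p and miR-30e-5p were tested and neither passed, miR-30c-5p was too low, and miR-384-5p was at 0 in all libraries. miR-6958-5p, which has the seed of the miR-30c 3p arms, was also at 0. The list of GUAAACA miRNAs lacks miR-30b-5p and miR-30d-5p, for which no sequence was found. Both were tested and neither passed.

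The main comparison asked whether LPS altered the miR-30 arms within 3 h. The 4 abundant 5p arms had fold changes near 1, and no miR-30 arm passed edgeR's quasi-likelihood test (0 of the 8 arms that met the filter). Over all 357 tested miRNAs, 18 passed at an adjusted p below 0.05 (5.04%). Over the alternatives this count ran from 11 (LPS replicate 3 left out) to 26 (no filter, 941 miRNAs tested). Adjusted p-values of the miR-30 arms ran from 0.159 to 0.998. At an unadjusted p below 0.05, 1 of 8 arms passed, against 11.8% of all tested miRNAs. DESeq2 called 1 arm and 5.88% of all tested miRNAs, and limma-voom called 0 arms and 5.04%. In none of the 8 arms were the control and LPS libraries fully apart, which was the case for 16.0% of tested miRNAs. The median log2 fold change of the 8 arms was 0.01, as it was for all tested miRNAs, and the median absolute value was 0.07 against 0.14.

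The intervals give the size of change that these libraries leave possible. miR-30d-5p averaged 26101 ± 860 CPM in controls and 25827 ± 557 CPM after LPS (SD, 3 libraries each). Its log2 fold change was -0.02 with a 95% confidence interval from -0.21 to 0.18, which corresponds to 0.864 to 1.13 times the control level. miR-30e-5p was at 11554 ± 217 and 11565 ± 421 CPM, with a log2 fold change of 0.0014 and an interval from -0.20 to 0.20. These are the arms that carry most of the pool. miR-30b-5p was at 6122 ± 215 and 6428 ± 530 CPM (log2 fold change 0.07, interval -0.16 to 0.30). miR-30a-5p was at 999.0 ± 49.0 and 1044 ± 125 CPM (0.06, interval -0.20 to 0.33). For miR-30d-5p, miR-30e-5p, miR-30b-5p and miR-30d-3p the sign of these small values turned with the scaling, the filter or the libraries used.

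**Figure D3:**
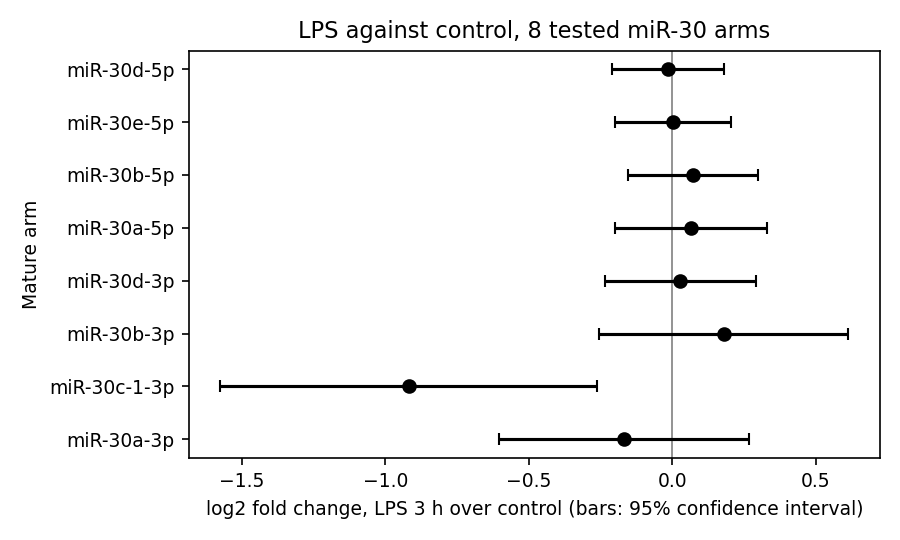
Log2 fold change of LPS over control for the 8 tested miR-30 arms, with 95% confidence intervals from edgeR. The intervals of 7 arms cross 0, and that of miR-30c-1-3p runs from -1.57 to -0.26 before any adjustment for the 357 miRNAs tested.

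Among the 3p arms, miR-30d-3p had a log2 fold change of 0.03 (95% interval -0.24 to 0.29), miR-30b-3p of 0.18 (-0.25 to 0.61) and miR-30a-3p of -0.17 (-0.60 to 0.27). miR-30c-1-3p had the smallest p of the family. Its counts were 96, 154 and 120 in controls and 34, 94 and 51 after LPS, which is 22.8, 37.4 and 29.1 CPM against 10.8, 23.0 and 12.9 CPM. LPS replicates 1 and 3 lay below all controls, and LPS replicate 2 lay just above control replicate 1. The log2 fold change was -0.92 (SE 0.30, 95% interval -1.57 to -0.26), and with an edgeR adjusted p of 0.159 it did not pass.

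The call for miR-30c-1-3p changed with the method. DESeq2's Wald test, which called 6 of 357 miRNAs downward (1.68%), gave an adjusted p of 0.047. edgeR with no filter, which called 0.85% of 941 miRNAs downward, gave an adjusted p of 0.00459. Without LPS replicate 2, where 1.37% of 365 tested miRNAs were called downward, the log2 fold change was -1.31 and edgeR's adjusted p was 0.0156. Over all alternatives edgeR's, DESeq2's or limma-voom's adjusted p for this arm ranged from 0.00459 to 0.591, and the log2 fold change from -1.31 to -0.71.

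miR-30c-1-3p and miR-30e-5p come from the same pair of hairpins in the span of Nfyc. Within each library, the log2 ratio of miR-30c-1-3p to miR-30e-5p counts was -8.63 ± 0.35 in controls and -9.61 ± 0.59 after LPS (SD, n = 3). The difference was -0.98 (two-sided exact permutation p = 0.2). A test of 3 against 3 libraries cannot give a p below 0.1, so it could not have passed, and the ratio was chosen after the values were seen. The 5p arm of the same hairpin, miR-30c-5p, was too low to compare.

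The 2 most abundant miR-30 arms, miR-30d-5p and miR-30e-5p, varied very little over the 6 libraries, control and LPS together. The SD of log2 CPM (with 2 counts added before scaling) was 0.037 for miR-30d-5p and 0.037 for miR-30e-5p, the lowest and second lowest of 357 tested miRNAs, against a median of 0.24 for all tested miRNAs and 0.14 for the 56 of at least 1000 CPM. The SD of miR-93-5p was close to these 2, at 0.038. miR-30b-5p (0.091) had the 22nd and miR-30a-5p (0.12) the 52nd lowest SD of the 357, and the 9th and 20th lowest of the 56. The order depended on the scaling: miR-30d-5p was 3rd with median-of-ratios factors, 11th with upper-quartile factors and 2nd with library totals, and miR-30e-5p was 4th, 6th and 7th. Leaving out any 1 library kept both within the 5 lowest. Each of miR-30d-3p, miR-30a-3p and miR-30b-3p varied more than the 5p arm of its own hairpin, with SDs of 0.10, 0.18 and 0.21. Counts were low for miR-30a-3p (50 to 93 per library) and miR-30b-3p (78 to 138 per library). At the other end, miR-30c-1-3p (0.66) had the 335th lowest SD. It also had only 34 to 154 counts per library.

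**Figure D4:**
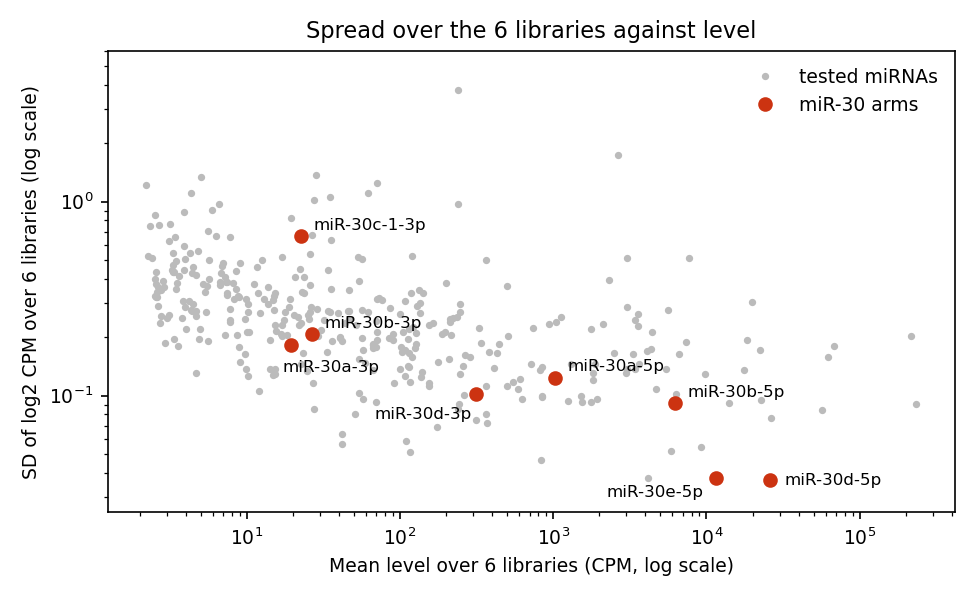
SD of log2 CPM over the 6 libraries against mean level (CPM), both on log scales, for 357 tested miRNAs (grey) and the 8 tested miR-30 arms (red). miR-30d-5p and miR-30e-5p have the lowest SDs of the plot (0.037 each) and miR-30c-1-3p stands high, at 0.66.

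The last comparison asked how the 2 arms of a hairpin divided the counts, and whether LPS moved that division. The 5p arm dominated in all 3 hairpins with both arms tested. In miR-30b the 5p arm held 99.59% ± 0.024 of what the hairpin gave in controls and, after LPS, 99.56% ± 0.082 (SD, n = 3). In miR-30d it held 98.82% ± 0.029 and 98.79% ± 0.15, and in miR-30a 98.00% ± 0.10 and 98.28% ± 0.26. Over all libraries the 5p arm outnumbered the 3p arm 233-fold in miR-30b, 82.3-fold in miR-30d and 52.7-fold in miR-30a. Among the 100 hairpins with both arms tested these were the 12th, 25th and 30th most one-sided, and the median ratio of major to minor arm was 12.97. Hairpins whose minor arm was too low for the filter are left out, so these ranks and this median hold within the 100 only. The 5p arm was the major one in 55 of the 100.

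**Figure D5:**
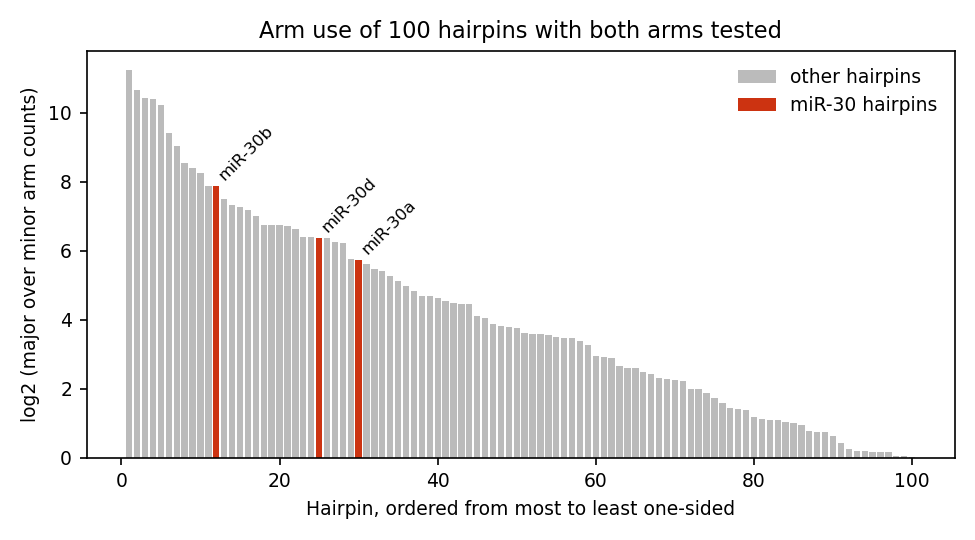
Log2 ratio of the counts of the major to the minor arm, summed over 6 libraries, for 100 hairpins ordered from most to least one-sided. The miR-30 hairpins (red) stand at ranks 12, 25 and 30.

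No difference in arm use was detectable. The 3p arm of miR-30a held 2.05%, 1.89% and 2.07% of the hairpin's counts in controls and 1.71%, 1.98% and 1.46% after LPS, and the groups overlap. The difference between arms (3p minus 5p, LPS minus control, on the log2 scale) was -0.23 for miR-30a (95% interval -0.68 to 0.22), 0.09 for miR-30b (-0.35 to 0.53) and 0.04 for miR-30d (-0.32 to 0.39). limma called 0 of these 3 hairpins, with adjusted p-values of 0.733, 0.865 and 0.942, while 12.0% of the 100 hairpins passed. At an unadjusted p below 0.05, 0 of the 3 passed, against 17.0% of the 100. No arm ratio could be formed for miR-30e, whose 3p arm is listed at 0, or for the 2 miR-30c hairpins, which share their 5p arm.

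Correlations over 6 libraries are given as a description, since miR-30d-5p and miR-30e-5p hardly varied. Pearson's r of log2 CPM over the 6 libraries, which share their scaling, was 0.27 between the arms of miR-30a, 0.49 between those of miR-30b and -0.43 between those of miR-30d. Between hairpins of 1 pair, miR-30d-5p and miR-30b-5p had an r of 0.30, and miR-30e-5p and miR-30c-1-3p of -0.11. Among 132 tested miRNAs of at least 100 CPM outside the family, the profile most like that of miR-30d-5p was let-7j (r = 0.90), followed by miR-342-3p (0.90) and miR-1839-5p (0.87). For miR-30c-1-3p it was miR-511-3p (0.89), followed by miR-27b-3p (0.86) and miR-421-3p (0.76). None of these 6 passed edgeR's test for LPS against control, with adjusted p-values from 0.62 to 0.943.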

How the data were processed

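The deposited tables hold raw counts, with a whole number for each mature miRNA in each of 6 libraries. The submitters' processing notes list, with no role, Novoalign and SAMtools 0.1.19, and the build as GRCm38.p1 (mm10), and per the labels' protocols libraries came from total RNA with the TruSeq Small RNA kit. How reads were counted (tool, annotation release, strand, reads fitting several places) is not given in the sources used here. The 2 samples of chromosome conformation capture were not analysed here.

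The 6 libraries entered every fit. edgeR 4.0.16 (R 4.3.3) was run on all miRNAs with TMM factors, filterByExpr (minimum count 10), the quasi-likelihood F test and Benjamini-Hochberg adjustment over 357 miRNAs, with adjusted p below 0.05 called. CPM were taken on TMM-scaled library sizes. Arm ratios were fitted with limma 3.58.1 on log2 CPM (prior count 2) of the minor minus the major arm, with a variance trend. Tests were tried on simulated data. Alternatives used DESeq2 1.42.0, limma-voom, other scalings and filters, a replicate block and each library left out.

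The members, lists and comparisons were chosen with earlier results of these data known. Besides the 10 arms, the text names miRNAs with a member's seed, those at the same loci, miR-155 as a check of the response, and the 3 most alike profiles of the highest arm and of the arm with the smallest p. The library totals set the counting error only. Replicates of 1 group differed by far more than sampling noise, with a chi-square statistic over its degrees of freedom of 62.3 or above for every pair.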

Additional observations from a re-analysis of the deposited data

How the results depend on the processing

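The number of miR-30 arms called for LPS against control was 0, and it became 1 (miR-30c-1-3p) with no filter, with DESeq2 and with the replicate block. It was 0 to 1 when a library was left out, being 1 without LPS replicate 2. With the replicate block the log2 fold change of miR-30c-1-3p was -0.97 (edgeR adjusted p = 0.0347) and 17 miRNAs were called in place of 18. Same-numbered libraries did not deviate together (r of 0.02, 0.14 and -0.04), so the numbers were not taken as pairs, and not every library correlated best with its own number.

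Values near 0 changed sign. The log2 fold change of miR-30d-5p was 0.0068 with no filter. That of miR-30d-3p was -0.031 with upper-quartile factors and -0.026 with library totals. That of miR-30e-5p was -0.0033 with median-of-ratios factors, -0.0033 with DESeq2, -0.059 with upper-quartile factors and -0.053 with library totals. Leaving out 1 library gave -0.010 to 0.14 for miR-30b-5p, -0.067 to 0.038 for miR-30d-5p, -0.0076 to 0.078 for miR-30d-3p and -0.060 to 0.075 for miR-30e-5p. It gave arm differences of -0.042 to 0.23 for miR-30b and -0.020 to 0.14 for miR-30d. No miR-30 hairpin was called under any of the 10 alternatives run on the arm ratio. The cause of these changes was not tested, and no such value passed a test.

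Without the 2 most abundant miRNAs in the total, the family held 8.36% of control and 8.10% of LPS counts. With TMM-scaled library sizes it held 4.517% and 4.525%, which turns the direction of the difference. Among 5p arms alone miR-30d-5p held 57.6% of LPS counts. The count of all calls, 18, ran from 11 without LPS replicate 3 to 26 with no filter. The ranking by spread over libraries and its alternatives were added after seeing the data. Depth limits miR-30c-5p and miR-30c-2-3p, with at most 9 counts per library.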
